A study of Homo sapiens with 2 samples.

Results

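A set of 10 glycolytic genes was followed in transcriptome-wide maps of C-to-U RNA editing around the splicing regulator RBFOX2. They encode pyruvate kinase (PKM) and the enzymes GPI, ALDOA, TPI1, GAPDH, PGK1, PGAM1, ENO1, LDHA and LDHB. The genes were chosen by name, and each was matched to the deposited isoform locus whose exons overlapped it most on its strand, so all 10 have a locus. Of the 12178 genes with an edit site in either library they make up 8, and TPI1 and ALDOA have isoform models but no listed site. Together they held 49 of the 121930 sites of the RBFOX2 library, 36 of the 103684 sites of the enzyme-only library and 241 of 119827 isoform models.

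Both libraries came from HEK293T cells, a human embryonic kidney line that the labels also call HEK293XT. APOBEC1, a cytidine deaminase, was fused to a nanobody against rabbit IgG and added to fixed cells as recombinant protein. In the RBFOX2 library a rabbit antibody against RBFOX2 directed the fusion to that protein, and in the enzyme-only library the fusion was applied without it. RNA was then read as full-length PacBio cDNA, with 1 library per group and 2 libraries in all. All 5 genes listed as known in HEK293 cells had a site, and none of 5 markers of other cell types had an isoform model. Every comparison is therefore between 2 libraries and not between conditions, no p-value was computed, and the 95% intervals (exact Clopper-Pearson for shares, exact Poisson for counts) cover counting error only. Intervals of shares and counts of sites take the sites as independent. Reads summed over the genes with a site came to 2431345 in the RBFOX2 library against 2233600 in the enzyme-only one.

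Glycolysis turns glucose into pyruvate in the cytosol, and lactate dehydrogenase converts pyruvate to lactate. These enzymes are abundant in proliferating cells. RBFOX2 binds UGCAUG in RNA and regulates splicing, and the tethered deaminase edits cytosines near the protein, preferring those that follow A or U. PKM is a known case of mutually exclusive splicing, in which PKM1 and PKM2 mRNAs carry different exons.

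Depth set what could be listed. The edit fraction of a site was its converted reads over the reads of the whole gene, and only fractions above 0.002 (0.2%) were listed. A position of GAPDH, with 8045 reads in the RBFOX2 library, needed 17 converted reads to appear, whereas a position of LDHA, with 919 reads, needed 2. The number of sites can therefore not be compared between members of different depth. Edited cytosines are here the listed positions. Neither library lacked the enzyme, so conversions that arise without it could not be set apart. For a position listed in 1 library only, the value in the other library is bounded by that same minimum, provided nothing else kept it out. Such positions were picked by their listing in 1 library, so converted reads above the bound in the other are fixed by that choice, and no ratio is drawn from them. Converted reads summed over positions count a read at each position where it was converted, so 1 read can be counted more than once. A gene absent from a table has an unknown number of reads there. As in any bulk sample, fewer expressing cells and less RNA per cell cannot be told apart in these read numbers.

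**Figure D1:**
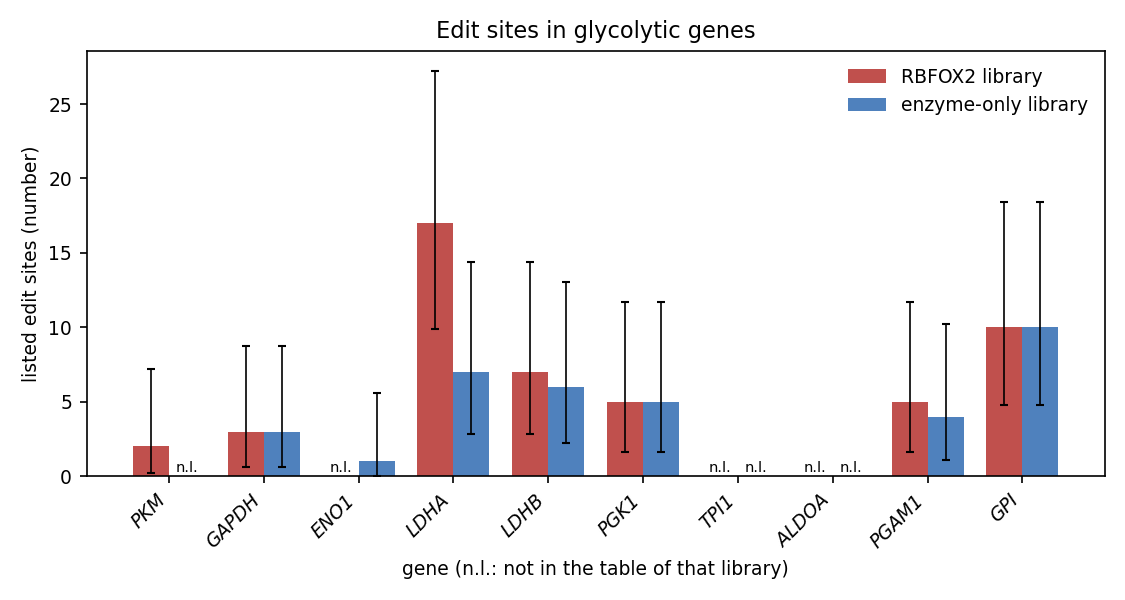
Number of listed edit sites (y axis) in each of the 10 genes (x axis), with the RBFOX2 library in red and the enzyme-only library in blue. Bars are counts and error bars exact Poisson 95% intervals; n.l. marks a gene absent from the table of that library. LDHA has 17 and 7 sites, and GPI has 10 in each library.

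Of the 10 genes, 7 had sites in the RBFOX2 library against 7 in the enzyme-only one, and 8 had sites in either. The sites fell on 74 positions, of which 11 were listed in both libraries. LDHA differed most in number, with 17 RBFOX2 sites and 7 enzyme-only sites. GPI had 10 sites in each library, but at different positions. In 5 of the 10 genes at least 5 sites over both libraries were left after the shared positions were removed, and only LDHA passed a 2-fold difference in that number, on the side of the RBFOX2 library. With the shared positions kept, its log2 ratio was 0.99 and 0 of 6 genes passed. Among all loci with at least 5 such sites, 23.1% passed it on that side and 19.98% on the other. Among loci with at least 500 reads in each library that listed them, the shares were 33.4% and 14.3%. The count of 1 in 5 is near this background. Of the 3604 loci with at least 20 unshared sites, 16.8% and 14.6% passed, and of the 2 members among them, LDHA and GPI, LDHA did. The median log2 ratio of the 5 genes (RBFOX2 over enzyme-only, scaled by library totals, pseudocount 0.5) was 0.10, and that of the 7463 loci compared was 0.10. Over the 683 loci of at least 500 reads it was 0.39.

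**Figure D2:**
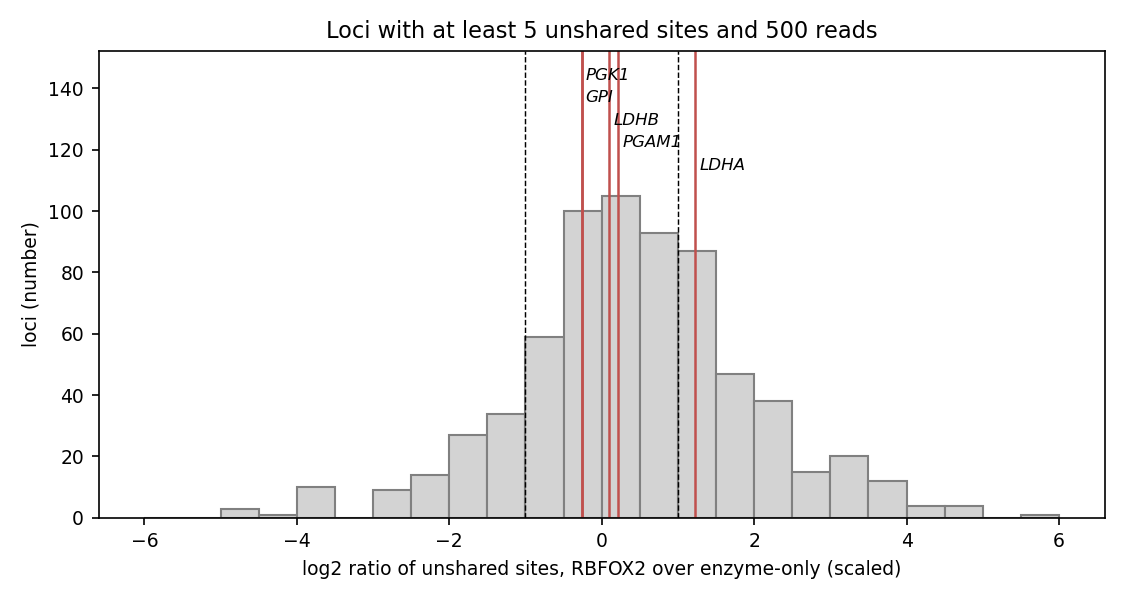
Distribution of the scaled log2 ratio of unshared sites (x axis, RBFOX2 over enzyme-only) over the 683 loci with at least 5 such sites and 500 reads (y axis, number of loci). Red lines mark PGK1 and GPI (both -0.26), LDHB (0.10), PGAM1 (0.22) and LDHA (1.23); dashed lines mark the 2-fold limit.

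GPI, glucose-6-phosphate isomerase, catalyses the step after hexokinase. The gene lies at chr19:34359480-34402413 (hg38, plus strand) and had 653 reads in the RBFOX2 library against 732 in the enzyme-only one. Its exons hold 1 UGCAUG, at chr19:34400108-34400113 in the 3'UTR, 72 nt after the stop codon of the MANE Select transcript, the reference transcript chosen for each gene. It was present in 20 of 23 isoform models. The hexamer is shown with the first 4 edited cytosines 3' of it, because all of the nearby RBFOX2 sites lay on that side.
GPI, chr19:34400107-34400136, plus strand (capitals mark the hexamer and the cytosines listed in the RBFOX2 library): cTGCATGttcctggaCaCcaCccagagcaC
In the RBFOX2 library 5 sites lay 9 to 27 nt 3' of the hexamer, within 19 nt of each other, and together had 12 converted reads. The position chr19:34400122 had 3 converted reads, as did 34400140, and the positions 34400124, 34400127 and 34400136 had 2 each. None of the 5 was listed in the enzyme-only library, where at most 1 converted read per position could have gone unlisted. The enzyme-only library had 1 site within 50 nt, at 34400072, which lay 36 nt 5' of the hexamer and had 2 converted reads. The strongest site of all 10 genes also lay in this 3'UTR, at 34400294, with 6 of 653 reads (0.919%) in the RBFOX2 library against at most 1 of 732 in the enzyme-only one. It lay 181 nt 3' of the hexamer.
GPI, chr19:34400280-34400308, plus strand (capital: the edited cytosine 34400294): gttcacgttgttcaCatcccatgtagaaa

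The libraries placed their GPI sites in different parts of the mRNA. Of 10 RBFOX2 sites, 9 lay in the 3'UTR (95% interval of the share 55.5% to 99.7%), over 173 nt from 34400122 to 34400294. Of 10 enzyme-only sites, 1 lay there (0.253% to 44.5%) and 9 lay in coding sequence. Both intervals take the sites as independent, although neighbouring sites can come from the same reads. Summed over the 9 RBFOX2 positions of the 3'UTR there were 25 converted reads, where up to 9 could have gone unlisted in the enzyme-only library. The 9 coding positions of the enzyme-only library had 19 converted reads of 732, where up to 9 of 653 could have gone unlisted in the RBFOX2 library. Most of these sites were at the listing minimum of 2 reads, 6 of 10 in the RBFOX2 library against 9 of 10 in the enzyme-only one. Coding sequence was counted first where annotated transcripts differed, and the MANE Select transcript alone gave the same 9 and 1. With UTR counted first in any transcript, 10 of 10 RBFOX2 sites and 6 of 10 enzyme-only sites were in a 3'UTR. The isoform models end at 34400346, so the rest of the annotated 3'UTR lies outside them, and its read coverage is unknown. The log2 ratio of the number of sites was -0.26 (-1.68 to 1.16). A second annotated gene, ENSG00000266953, overlaps this locus.

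ALDOA, the aldolase that splits fructose bisphosphate, and TPI1, which interconverts the resulting triose phosphates, had no listed site in either library. ALDOA (chr16:30064164-30070457, plus strand) had 31 isoform models with 1004 exonic cytosines, and TPI1 (chr12:6867119-6870948, plus strand) had 33 models with 962. Since neither gene is in the tables, their reads are unknown and no bound on their editing can be given. Neither has UGCAUG in an exon.

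GAPDH, the dehydrogenase that oxidises glyceraldehyde phosphate, was the deepest of the genes, with 8045 and 7428 reads (RBFOX2 and enzyme-only). It lies at chr12:6534512-6538374, plus strand, and 65 annotated pseudogenes are named after it; how reads were divided between them was not tested. Its 3 sites were the same 3 positions in both libraries. At 6537754 there were 34 converted reads (0.423%) and 28 (0.377%), at 6537775 there were 49 (0.609%) and 28 (0.377%), and at 6538288 there were 30 (0.373%) and 23 (0.310%). The RBFOX2 library was higher at each, and its largest ratio, at 6537775, was 1.62 with an interval from 0.996 to 2.67. The first 2 positions were synonymous coding changes and the third was in the 3'UTR. The coding pair is shown because these 2 positions have the most converted reads of any member in either library.
GAPDH, chr12:6537750-6537778, plus strand (capitals: the edited cytosines 6537754 and 6537775): tggcCttccgtgtccccactgccaaCgtg

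PGK1, phosphoglycerate kinase, makes the first ATP of the pathway's second stage. The gene (chrX:77910739-78129295, plus strand) had 1063 and 1090 reads and 5 sites in each library, 1 of them shared. The shared position, 78126053 in the 3'UTR, had 6 converted reads (0.564%) in the RBFOX2 library against 4 (0.367%) in the enzyme-only one.
PGK1, chrX:78126039-78126067, plus strand (capital: the edited cytosine 78126053): gaattttttagtgaCtaaaccattgtgca
Of the 5 RBFOX2 sites 4 were in the 3'UTR, and of the 5 enzyme-only sites 2 were. The highest site found in the RBFOX2 library alone, the coding position 78124882, had 5 of 1063 reads (0.470%), where at most 2 of 1090 could have gone unlisted. The log2 ratio of unshared sites was -0.26 (-2.69 to 2.16).

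PGAM1, phosphoglycerate mutase, lies at chr10:97426191-97433444, plus strand, and had 4082 and 3915 reads. All of its sites were in the 3'UTR, 5 in the RBFOX2 library against 4 in the enzyme-only one. The RBFOX2-only sites lay within 16 nt, at 97433380, 97433390 and 97433395, with 10, 9 and 12 converted reads. They are shown because, in these 10 genes, no other group of sites within so short a stretch had this many converted reads in 1 library only. That number also follows depth, since 9 converted reads were needed for listing at 4082 reads.
PGAM1, chr10:97433373-97433401, plus strand (capitals: the edited cytosines): tgttcatCtgagcataaCtgtaCtaaatc
At each of these positions the enzyme-only library could hold at most 7 of 3915 reads unlisted. Together they had 31 converted reads, where up to 21 could have gone unlisted, and the 2 enzyme-only positions had 17, where up to 16 could have gone unlisted in the RBFOX2 library. The nearest UGCAUG on the genome lay 1490 nt or more away and outside the exons. Only 5 of 13 isoform models contain this stretch, and the fractions divide by all reads of the gene, whose split over the models is not given in the tables. The log2 ratio of unshared sites was 0.22 (-2.80 to 3.90). There are 13 annotated pseudogenes named after PGAM1, and how reads were divided between them was not tested.

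ENO1, the enolase, lies at chr1:8861000-8879190, minus strand. It had 1 site, in the enzyme-only library, with 14 of 6924 reads (0.202%), which is the listing minimum. The site, 8864073, was a synonymous coding position. ENO1 was absent from the RBFOX2 table, so its reads there are unknown. ENO1 holds 2 of the 5 exonic UGCAUG hexamers of the 10 genes, both in exons that few isoform models carry, at chr1:8870776-8870781 (3 of 19 models) and chr1:8871685-8871690 (2 of 19), and no site lay within 50 nt of either. They are shown as hexamers without a listed site. In the enzyme-only library 14 of 6924 reads were needed for listing, and few models carry these exons, so editing there could have gone unlisted.
ENO1, first hexamer, minus strand (capitals mark it): tggcgtttccagTGCATGgtcttgcaaact
ENO1, second hexamer, minus strand (capitals mark it): ggttcccgagccTGCATGctctgggtcgag

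PKM, pyruvate kinase, catalyses the last step to pyruvate and is regulated by isoform choice. The gene lies at chr15:72199029-72231819, minus strand. It had 2 sites in the RBFOX2 library, both in the 3'UTR of the last exon and present in 20 of 21 isoform models. The position 72199359 had 9 of 3705 reads (0.243%) and the position 72199607 had 13 (0.351%), where 8 converted reads were needed for listing. PKM was absent from the enzyme-only table.
PKM, chr15:72199345-72199373, minus strand (capital: the edited cytosine 72199359): agggtgacagcttcCtttcctgtgtgtac
PKM, chr15:72199593-72199621, minus strand (capital: the edited cytosine 72199607): tgtcccacccccttCccccagcccatcca
No UGCAUG lies in an exon of PKM, and the nearest on the genome was 4016 nt or more from the sites. The PKM2 exon, chr15:72202454-72202620, has 56 cytosines and was exact in 11 of 21 isoform models, and the PKM1 exon, chr15:72203022-72203188, has 40 and was exact in 1. Neither exon held a listed site, so the sites do not separate PKM1 from PKM2 mRNAs. The share of exonic cytosines edited (editsC) of PKM isoforms had a median of 0.338% in the RBFOX2 library, and both sites were in all but 1 of the models. Here a listed position counts in every model that spans it, since reads were not assigned to models.

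LDHA, the lactate dehydrogenase subunit that predominates in glycolytic cells, lies at chr11:18394560-18408425, plus strand. It had 919 and 861 reads, 17 RBFOX2 sites and 7 enzyme-only sites, of which 2 were shared. The unshared numbers, 15 and 5, gave a log2 ratio of 1.23, whose interval, -0.21 to 3.14, includes 0. Of the RBFOX2 sites 13 had 2 converted reads, the listing minimum, and the highest had 4. All 7 enzyme-only sites had 2. At the 15 RBFOX2-only positions 34 converted reads were counted, where up to 15 could have gone unlisted in the enzyme-only library. At the 5 enzyme-only positions the corresponding values were 10 and up to 5.

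LDHA holds 1 exonic UGCAUG, at chr11:18407343-18407348, in all 18 isoform models. It is 62 nt after the stop codon of the MANE Select transcript and so in its 3'UTR, although another annotated transcript codes through it. The RBFOX2 library had 2 sites within 50 nt, at 18407311 with 2 converted reads, 32 nt 5' of the hexamer, and at 18407362 with 4 of 919 (0.435%), 14 nt 3' of it. The enzyme-only library had none, where at most 1 of 861 reads per position could have gone unlisted. The hexamer is shown with the nearer site.
LDHA, chr11:18407338-18407367, plus strand (capitals mark the hexamer and the edited cytosine 18407362): ggttgTGCATGttgtcctttttatCtgatc
The 2 shared positions, 18407620 and 18407622, lay further along the 3'UTR. They had 2 and 4 converted reads in the RBFOX2 library against 2 and 2 in the enzyme-only one, and the enzyme-only library listed 18407632 as well.
LDHA, chr11:18407607-18407635, plus strand (capitals: the edited cytosines 18407620, 18407622 and 18407632): ttcctggctccttCaCtgaacatgcCtag
Over its 18 isoform models editsC was higher in the RBFOX2 library in 18 of 18, with medians of 5.22% and 2.07%. Isoform models share exons, so these are not independent.

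LDHB, the other lactate dehydrogenase subunit, lies at chr12:21635342-21757857, minus strand, with 3922 and 3804 reads. It had 7 and 6 sites, 3 of them shared and all in coding sequence. The 2 RBFOX2-only positions with the most converted reads, 21637081 and 21637084, had 13 (0.331%) and 12 (0.306%), where at most 7 of 3804 could have gone unlisted, and both change an amino acid. Of the shared positions, 21637158 was lower in the RBFOX2 library, with 11 converted reads (0.280%) against 18 (0.473%). They are shown as an example of each direction.
LDHB, chr12:21637068-21637096, minus strand (capitals: the edited cytosines 21637084 and 21637081): ttcatcccgtgtCaaCaatggtaaaggta
LDHB, chr12:21637144-21637172, minus strand (capital: the edited cytosine 21637158): aaaggatataccaaCtgggctattggatt
LDHB holds 1 exonic UGCAUG, in the 5'UTR of 1 of 16 isoform models, with no site within 50 nt. The log2 ratio of unshared sites, 4 against 3, was 0.10 (-2.41 to 2.92). A second annotated gene, ENSG00000285854, overlaps this locus.

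**Figure D3:**
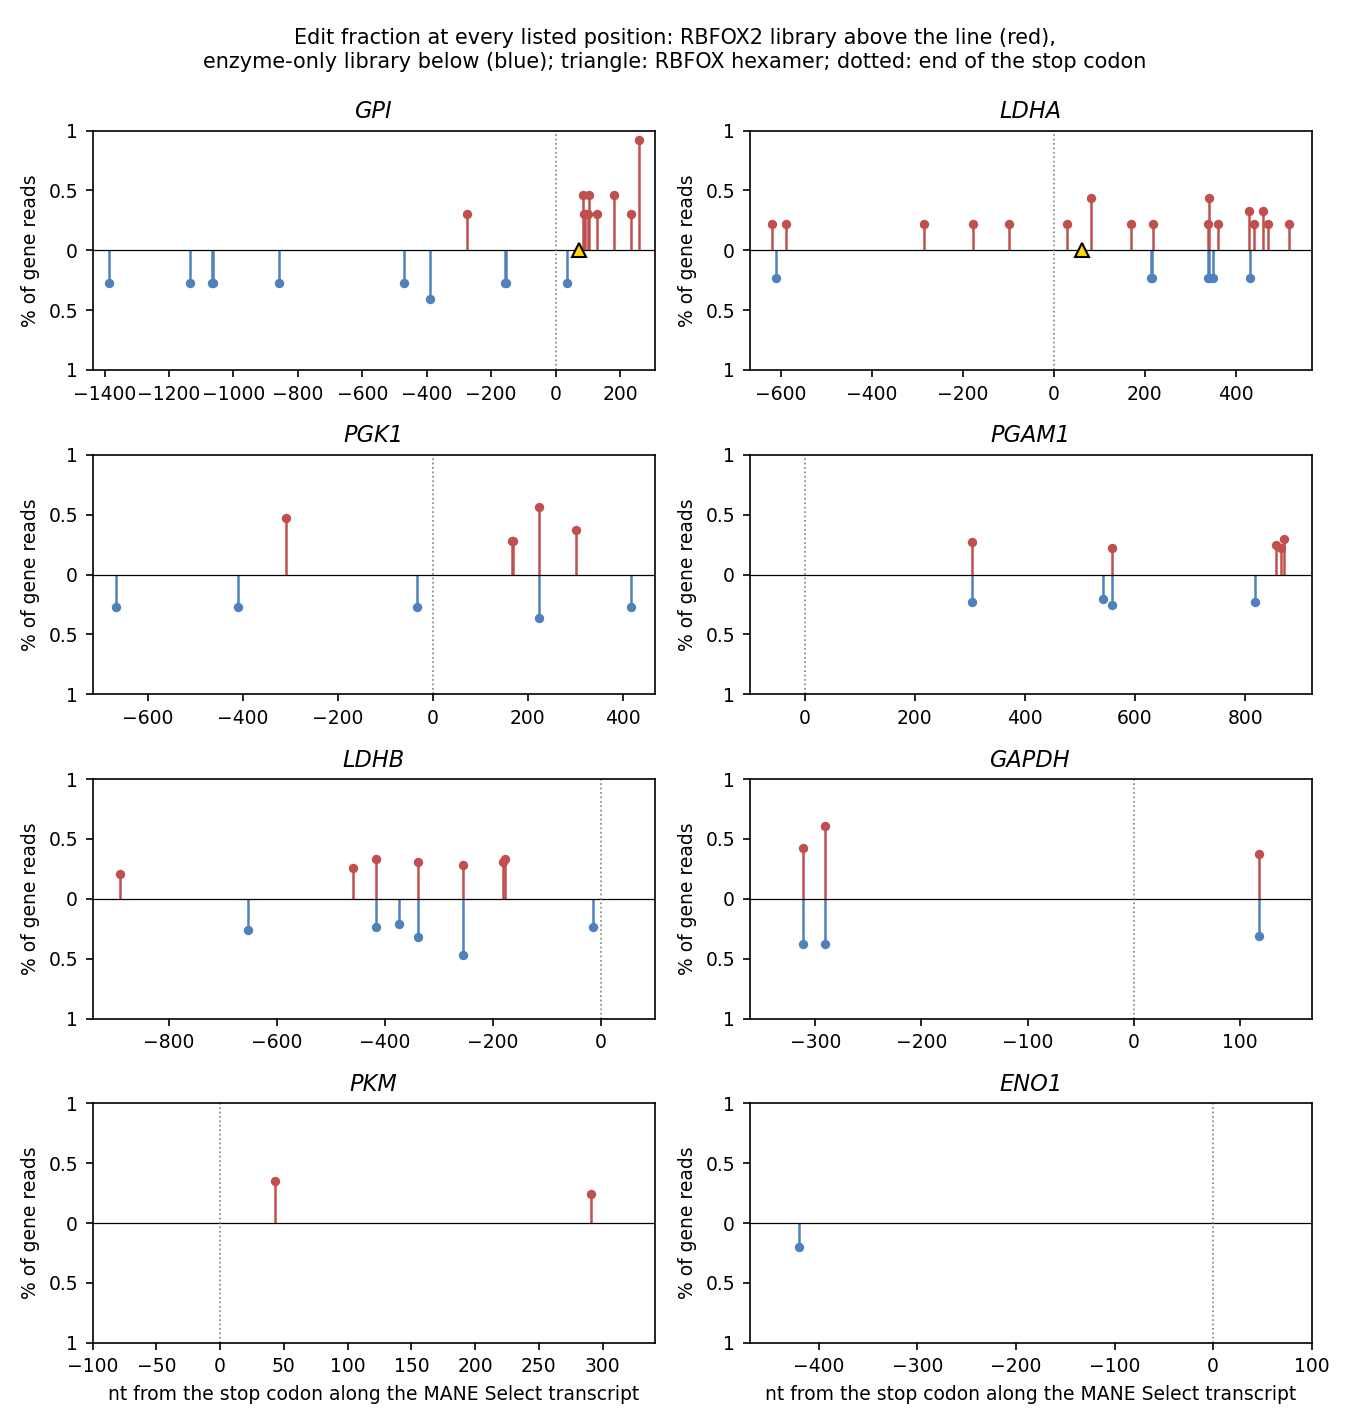
Converted reads as a percent of gene reads (y axis) at every listed position of the 8 genes with sites, by distance in nt from the stop codon along the MANE Select transcript (x axis). RBFOX2 library sites are red and point up, enzyme-only sites are blue and point down, and triangles mark the RBFOX hexamers of GPI and LDHA. In GPI 9 of 10 red sites follow the stop codon and 9 of 10 blue sites precede it.

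Over the 10 genes, UGCAUG was present 5 times in exons. The hexamers of GPI and LDHA had an RBFOX2 site within 50 nt, and the one of GPI had an enzyme-only site. Among 784 exonic hexamers of loci with at least 500 reads in both libraries, 21.6% had an RBFOX2 site within 50 nt and 12.9% an enzyme-only site, and 56.9% of the 789 such loci hold a hexamer. The ENO1 hexamers, 2 of the 5, are not in that set, since ENO1 was absent from the RBFOX2 table. Of the 38 unshared RBFOX2 sites, 7 lay within 50 nt of a hexamer (18.4%, 7.74 to 34.3), against 1 of 25 enzyme-only sites (4.0%, 0.101 to 20.4). The same shares over loci of at least 500 reads were 5.79% (448 of 7743) and 1.79% (82 of 4583). Of all exonic cytosines 1.46% lay within 50 nt in the 10 genes and 2.34% in the loci of at least 500 reads. These were pooled over all isoform models, with 13.4% of those of the 10 genes in a 3'UTR, so they do not match where the sites lay. Within 20 nt the shares of the 10 genes' sites were 10.5% and 0.0%, and within 200 nt they were 39.5% and 16%. Of these 7 sites 5 were on the single GPI hexamer, so they are not independent of each other.

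Unshared sites in the 3'UTR made up 65.8% of RBFOX2 sites (48.7 to 80.4) and 32.0% of enzyme-only sites (14.95 to 53.5). With UTR counted before coding sequence they were 86.8% and 60.0%. Over loci of at least 500 reads the shares, with coding sequence first, were 52.7% and 39.8%. GPI had 9 of 10 RBFOX2 sites and 1 of 10 enzyme-only sites in the 3'UTR. Over all listed sites, shared ones included, PGK1 had 4 of 5 and 2 of 5 there. LDHA went the other way, with 10 of 17 and 6 of 7. PGAM1 and GAPDH had equal shares in the libraries, and LDHB had no 3'UTR site. The pooled difference is therefore not common to the 10 genes. The share with A or U 5' of the cytosine was 92.1% (78.6 to 98.3) in the RBFOX2 library and 76.0% (54.9 to 90.6) in the enzyme-only library, against 42.3% of exonic cytosines. Over the same deep loci these shares were 88.1% and 77.3%. Coding changes are counted over all listed sites, shared ones included. The RBFOX2 library had 10 synonymous and 6 amino acid changes and no stop codon. The enzyme-only library had 17, 5 and none. Coding sites outside the MANE Select coding sequence were not scored for codons.

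At the 11 shared positions 181 RBFOX2 reads and 145 enzyme-only reads were converted. GAPDH, with 3 of these positions, gave 113 and 79 of them, and the sums are not scaled to gene reads. The RBFOX2 value was higher at 7 and lower at 4, with a median ratio of 1.17, and no interval of a ratio excluded 1. Shared positions made up 22.4% of the RBFOX2 sites (11.8 to 36.6) and 30.6% of the enzyme-only sites (16.4 to 48.1) of the 10 genes. Over loci of at least 500 reads these were 18.6% and 27.8%.

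**Figure D4:**
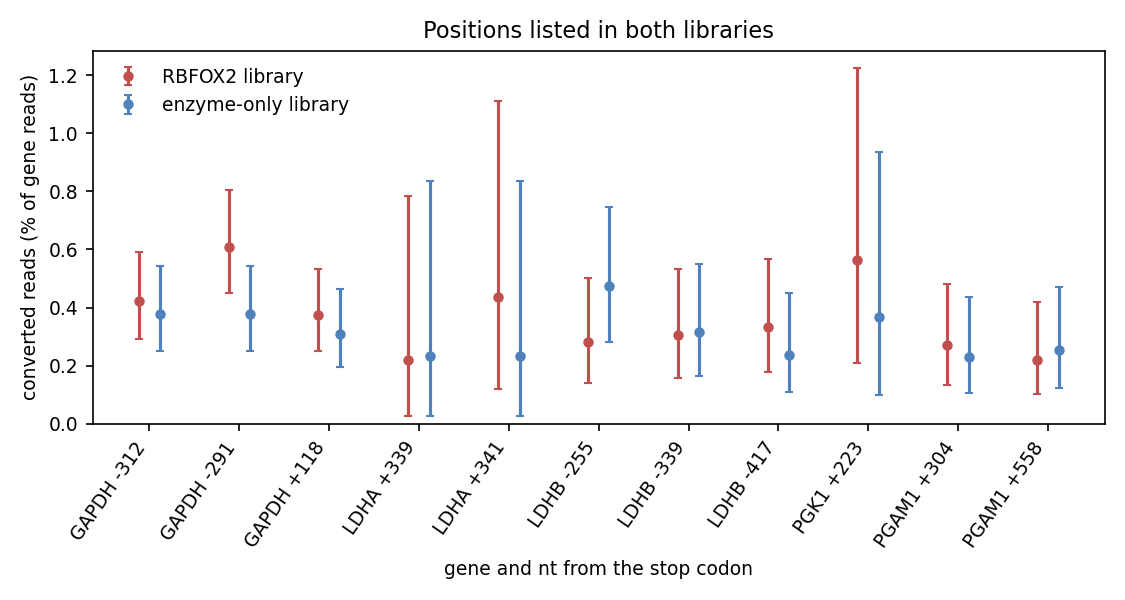
Converted reads as a percent of gene reads (y axis) at the 11 positions listed in both libraries, named by gene and nt from the stop codon (x axis), with exact 95% intervals. The RBFOX2 library (red) is above the enzyme-only library (blue) at 7 positions and below it at 4, and no ratio has an interval that excludes 1.

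Other genes of the pathway were read against the same 23.1% and 19.98% of all loci. Of 20 further glycolytic genes 9 had at least 5 unshared sites: BPGM (20 and 8 unshared sites, log2 ratio 1.01) passed on the RBFOX2 side and ADPGK (21 and 55, -1.63) on the other. Of 16 genes of transport and regulation 9 had at least 5 unshared sites: SLC16A1, the lactate transporter (8 and 3, 1.02), was higher, and PFKFB3 (2 and 4, -1.11) and PDK2 (8 and 19, -1.46) were lower. Of 7 pentose phosphate genes, RPIA (63 and 15, 1.77), RPE (36 and 10, 1.53) and TALDO1 (11 and 4, 1.09) were higher, and PGD (7 and 33, -2.42) and PGLS (3 and 7, -1.36) were lower. Of 23 pyruvate dehydrogenase and TCA cycle genes, PDHA1 (31 and 4, 2.54), OGDH (10 and 2, 1.81), SDHB (13 and 3, 1.68) and PDHB (30 and 10, 1.28) were higher, and MPC1 (7 and 25, -2.03) and SUCLG2 (9 and 25, -1.69) were lower. For PGD and MPC1 the RBFOX2 library needed 2 converted reads for listing and the enzyme-only library 1, and its part in these ratios was not tested. In BPGM, ADPGK, PFKFB3, PDK2, RPIA, RPE, PGLS, OGDH and SUCLG2, 1 converted read was enough for listing in both libraries. A site there can rest on 1 read. SLC16A1, TALDO1, PDHA1, PDHB and SDHB had at least 500 reads in each library, where 33.4% and 14.3% of loci passed. Within 50 nt of UGCAUG, RPIA had 9 RBFOX2 sites and 3 enzyme-only sites, and MYC, which regulates glycolytic genes, had 8 and 3. More RBFOX2 than enzyme-only sites lay there in IDH3G (5 and 4), PDHA1 and SDHA (2 and 0 each), and SLC16A1, CS and IDH3B (1 and 0 each). Numbers were equal in PFKP and DLD (1 and 1 each). They were lower in the RBFOX2 library in ADPGK (1 and 5), HK1 (1 and 4), MPC1 (3 and 4), IDH3A (0 and 3), and PFKL, HIF1A and PGD (0 and 1 each).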

How the data were processed

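Edit sites of 2 HEK293T libraries were analysed, and the label descriptions gave each library its group. The members and gene lists were chosen with earlier results of these data known.

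Per the labels, the authors prepared libraries with a PacBio Iso-Seq kit and used hg38. The study's methods describe another kit (Kinnex), pbmm2 alignment and IsoQuant isoforms, so a different run may have given these tables. The software that named the loci is not given in the sources used here. The authors deposited, for each site, the count of converted reads, the count of reads of its gene and an edit fraction, which is the first count over the second and exceeds 0.002 at every listed site. The authors also deposited a confidence score, which was used only in an alternative, and isoform models without expression values. The study's removal of annotated variants was not repeated. Nothing says that the libraries came from separate cultures.

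Each of the 225614 listed positions was checked against hg38 and was a cytosine on its strand. Loci were named by largest same-strand exonic overlap with GENCODE 44 (bedtools 2.31.1). Positions found in both libraries were removed from ratios and shares unless stated. The log2 ratio used a pseudocount of 0.5 and library totals of 109357 and 91111 unshared sites, and a ratio past 2-fold counted as different. A position was counted as coding before UTR over all annotated transcripts. The motif searched was UGCAUG on the transcribed strand of the genome, within 50 nt. Intervals used scipy 1.17.1. The ratio was tested on simulated counts, with known changes planted only in loci of at least 20 unshared sites. Among the members only LDHA and GPI have that many, so the ratio was not tested at the lower counts of the others. Alternatives were shared sites kept, filters on fraction, confidence, depth and exons, other windows and motifs, pseudocount, scaling and annotation. All 10 members are described. Other genes are named where they passed 2-fold or had sites within 50 nt of UGCAUG, with 3 loci nearest PKM in depth. Some genes of the lists that meet this rule are not reported here. No p-value was computed, since each group held 1 library.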

Additional observations from a re-analysis of the deposited data

How the results depend on the processing

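No paired analysis was possible because each group held 1 library and the labels number the libraries differently, and no library could be left out. Of 81 recomputed values, 73 stayed within the limits set for them. A confidence score of at least 0.5 left 0 RBFOX2 sites and 0 enzyme-only sites of the members, so nothing else could be computed with it. The study's methods kept short-read sites with a score above 0.5 and state no such cut for long reads. No member site described here would pass that cut. How the score of these long-read sites was computed is not given in the sources used here. The highest score of a member site was 1.36e-09, and the highest edit fraction was 0.919%. With shared sites kept, 0 of 6 genes passed 2-fold on the RBFOX2 side, because the log2 ratio of LDHA moved from 1.23 to 0.99. A window of 200 nt around UGCAUG held 39.5% of the RBFOX2 sites and 16% of the enzyme-only sites, and a window of 20 nt held 10.5% and 0.0%. Counting UTR before coding sequence put 86.8% of RBFOX2 sites and 60.0% of enzyme-only sites in the 3'UTR, and the MANE Select transcript alone, an alternative chosen after seeing the data, put 71.1% and 32.0% there. The other alternatives, among them the pseudocount, scaling, the filter on sites, the pentamer and a common minimum of converted reads, changed no call. The listing minimum limits the deep genes most, and sites of 2 converted reads in LDHA and GPI carry wide intervals.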

Other observations

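The 3 loci with read numbers closest to PKM in the RBFOX2 library were listed in both tables. RPL5 (3722 and 3799 reads) had 9 and 5 sites, RPL6 (3620 and 3101 reads) had 3 and 1, and ZNF343 (3577 and 3274 reads) had 3 and 2.

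Of 4 splicing factors that act on the PKM exons, 3 had enough sites for a ratio. HNRNPA2B1 had 3 unshared RBFOX2 sites and 9 enzyme-only sites (log2 ratio -1.70), PTBP1 had 9 and 4 (0.81) and SRSF3 had 9 and 5 (0.53). HNRNPA1 had no listed site. Among genes known in HEK293 cells, VIM was listed only in the RBFOX2 library (9 sites) and KRT8 was listed only in the enzyme-only library (5 sites). NEFL had 1 RBFOX2 site and 3 enzyme-only sites within 50 nt of UGCAUG, and NEFM had 6 and 1.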
